A study of Mus musculus with 70 samples.

Results

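The genes described here are interferon-stimulated genes, 37 listed by symbol, which cells switch on when an interferon binds its receptor. Of the 37, 35 had a row in the deposited FPKM table, among 21859 genes and 4 reporter or transgene sequences; Mx1 and Mx2, which encode dynamin-like antiviral GTPases, were not analysed here. FPKM, a value per kilobase of gene and per sequenced library, corrects a gene's reads for its length and the library's depth. The study compared primary senescent cells, which carry an induced kinase, with the cells around them in C57BL/6 mice. The kinase was caMEK1, used to activate ERK (oncogene-induced senescence, OIS), or caMKK6, used to activate p38 (stress-induced senescence, SIS).

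In mouse embryonic fibroblasts (MEFs) from E13.5 embryos, 8 groups of 3 libraries were measured: caMEK1 or caMKK6 cells without doxycycline at day 2, and with 2 µg/mL doxycycline at days 2, 4 and 7. In liver and in colon, 9 groups each came from chimeric males: GFP-positive cells of Control, caMEK1 and caMKK6 animals without doxycycline (3 libraries each), and mCherry-positive and GFP-positive cells sorted from the same animals after 7 days of doxycycline. Those treated groups held 2 libraries per colour for liver Control, 3 for liver caMEK1, 2 for liver caMKK6, 2 for colon Control, 2 for colon caMEK1 and 3 for colon caMKK6. Treated caMEK1 animals drank 0.2 mg/mL doxycycline and treated caMKK6 and Control animals 2 mg/mL, so the kinase and the dose cannot be told apart. That water also held 10 mg/mL sucrose, which the labels do not give for untreated animals, so doxycycline and sucrose cannot be told apart either. Untreated MEFs were sampled at day 2 alone, so culture time and doxycycline cannot be told apart at days 4 and 7. The labels do not give the promoter of the transgenes, what the Control animals carry, or whether MEF replicates were separate cultures. The MEF p-values therefore measure the spread between these samples, which may be technical.

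Interferons are secreted proteins. Type I interferons signal through IFNAR1 and IFNAR2 and the kinases JAK1 and TYK2 to a complex that holds STAT2 and IRF9 and binds the interferon-stimulated response element (ISRE) in promoters, whereas interferon gamma acts at gamma-activated sites (GAS). The induced proteins sense viral nucleic acid, block viral entry, translation and budding, and attack membranes around intracellular pathogens. Many of these genes keep a low tonic expression without infection, and their induction by cytosolic DNA has been described in senescent cells.

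The ISRE core was searched for in RefSeq promoter windows of GRCm38.p6, from 250 bases before to 50 after each gene's start, as GAAA and GAAA with 2 bases of any kind between them, on either strand, overlaps counted. Of the 28 members with a window, 19 held it (67.9%), beside 3.99% of 27025 symbols and 3.44% of 32851 windows. A GAS-like TTCNNNGAA lay in 9 of the 28 (32.1%), beside 9.55% of symbols and 8.3% of windows, and 6 members held both. Gbp2, Ifit3, Irgm1 and Bst2 were the members with a match before the start that passed the test in the most comparisons, in 9, 7, 7 and 6 of 20, and are shown for that reason. Each line gives 250 bases ending just before the annotated start, 5′ to 3′ in the gene's direction, with the matches in capitals; in Gbp2 and Ifit3 the match lies on the other strand. A match is a description of letters and not of binding.
Gbp2, chr3:142620413-142620662, plus strand: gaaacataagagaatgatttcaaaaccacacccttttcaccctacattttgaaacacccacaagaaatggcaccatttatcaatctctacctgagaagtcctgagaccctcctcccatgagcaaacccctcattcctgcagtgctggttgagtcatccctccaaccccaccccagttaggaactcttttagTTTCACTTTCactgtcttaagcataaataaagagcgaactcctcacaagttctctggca
Ifit3, chr19:34583279-34583528, plus strand: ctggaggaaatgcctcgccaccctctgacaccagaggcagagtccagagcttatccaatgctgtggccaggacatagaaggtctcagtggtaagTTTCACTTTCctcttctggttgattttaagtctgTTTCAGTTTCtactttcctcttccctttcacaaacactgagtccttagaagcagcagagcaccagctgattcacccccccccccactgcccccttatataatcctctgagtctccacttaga
Irgm1, chr11:48871421-48871670, minus strand: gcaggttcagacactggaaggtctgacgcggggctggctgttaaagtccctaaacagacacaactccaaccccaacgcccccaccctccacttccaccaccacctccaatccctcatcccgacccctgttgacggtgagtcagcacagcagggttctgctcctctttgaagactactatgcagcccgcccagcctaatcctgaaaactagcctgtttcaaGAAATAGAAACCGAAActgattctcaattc
Bst2, chr8:71537473-71537722, minus strand: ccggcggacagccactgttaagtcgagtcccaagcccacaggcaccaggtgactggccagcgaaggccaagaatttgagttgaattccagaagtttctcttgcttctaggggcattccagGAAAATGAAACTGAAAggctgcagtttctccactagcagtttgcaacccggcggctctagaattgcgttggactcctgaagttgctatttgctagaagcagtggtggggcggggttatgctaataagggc
Irgm1 and Bst2 each carried 2 matches that share bases, Ifit3 carried 2 separate ones and Gbp2 carried 1. The windows of Ifi35, Ifi44, Ifit2, Irf1, Irf7, Irf9, Oasl1, Oasl2 and Xaf1 did not contain these letters.

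The 70 libraries held 6671204 to 17763531 reads on genes. Genes were tested with limma on log2(FPKM + 1), with 1 fit per tissue, and called at a Benjamini-Hochberg adjusted p under 0.05 over all genes that passed the expression filter; this scale understates the change of low genes. Hepatocyte markers summed to 31878 FPKM or more in every liver library, epithelial markers to 3564 or more in every colon library, and 7 of 8 fibroblast markers reached 1 FPKM in every MEF library. Both transgenes followed their genotype labels, except that 5 caMKK6 MEF libraries (untreated replicates 2 and 3, day 2 replicates 2 and 3 and day 4 replicate 2) listed the Xenopus MEK1 transgene of the other line above 5 FPKM. Treated GFP cells were not free of their own kinase transgene. It stood at 12.28 and 28.75 FPKM in caMEK1 colon GFP cells and at 8.498 to 115.7 in caMKK6 colon GFP cells. In liver GFP cells it stood at 0.1331 to 0.2377 under caMEK1 and at 1.506 and 30.88 under caMKK6. The sorted reporter set the colours apart within each treated genotype, but its level differed between genotypes: mCherry stood at 4.24 to 12.16 FPKM in liver caMEK1 mCherry cells, and at 677.8 and 749.6 in treated liver Control GFP cells, beside 3985 and 4727 in the Control mCherry cells. In caMEK1 liver mCherry cells the MEK1 transgene lay at 5.551 to 14.13 FPKM, beside 234.7 and 287.5 in caMEK1 colon mCherry cells. In bulk samples, fewer cells of a type and less RNA per cell cannot be told apart.

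In cells without doxycycline, the members differed in level between MEFs, hepatocytes and colon cells, as shown by FPKM, a per-length scale. The filter was passed by 17 members in MEFs, 31 in liver and 32 in colon. Ifitm3, a membrane protein that blocks viral fusion, had the highest mean over all libraries of each kind, at 249.6, 349 and 35.18 FPKM in MEFs, liver and colon. Every untreated liver library lay above every untreated MEF and colon library for 8 members, Usp18, Ifit3, Stat2, Bst2, Ifitm3, Gbp7, Igtp and Rtp4. The same held in colon for Oas1a, Oasl2, Ifih1, Zbp1 and Irf1, and in MEFs for Ifit2 and Gbp2. No test was run between these kinds of cell, and the share of all genes set apart in this way was not counted. These numbers of members therefore do not show that the members differed more than other genes. Ifi44 and Oas2 stayed under the filter in all 3, Oas3 and Oasl2 in MEFs and liver, Ifit3b in MEFs and colon, and Usp18, Oas1a, Oasl1, Dhx58, Zbp1, Irf7, Rsad2, Gbp3, Gbp7, Igtp, Rtp4, Parp14 and Trim30a in MEFs alone.

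**Figure D1:**
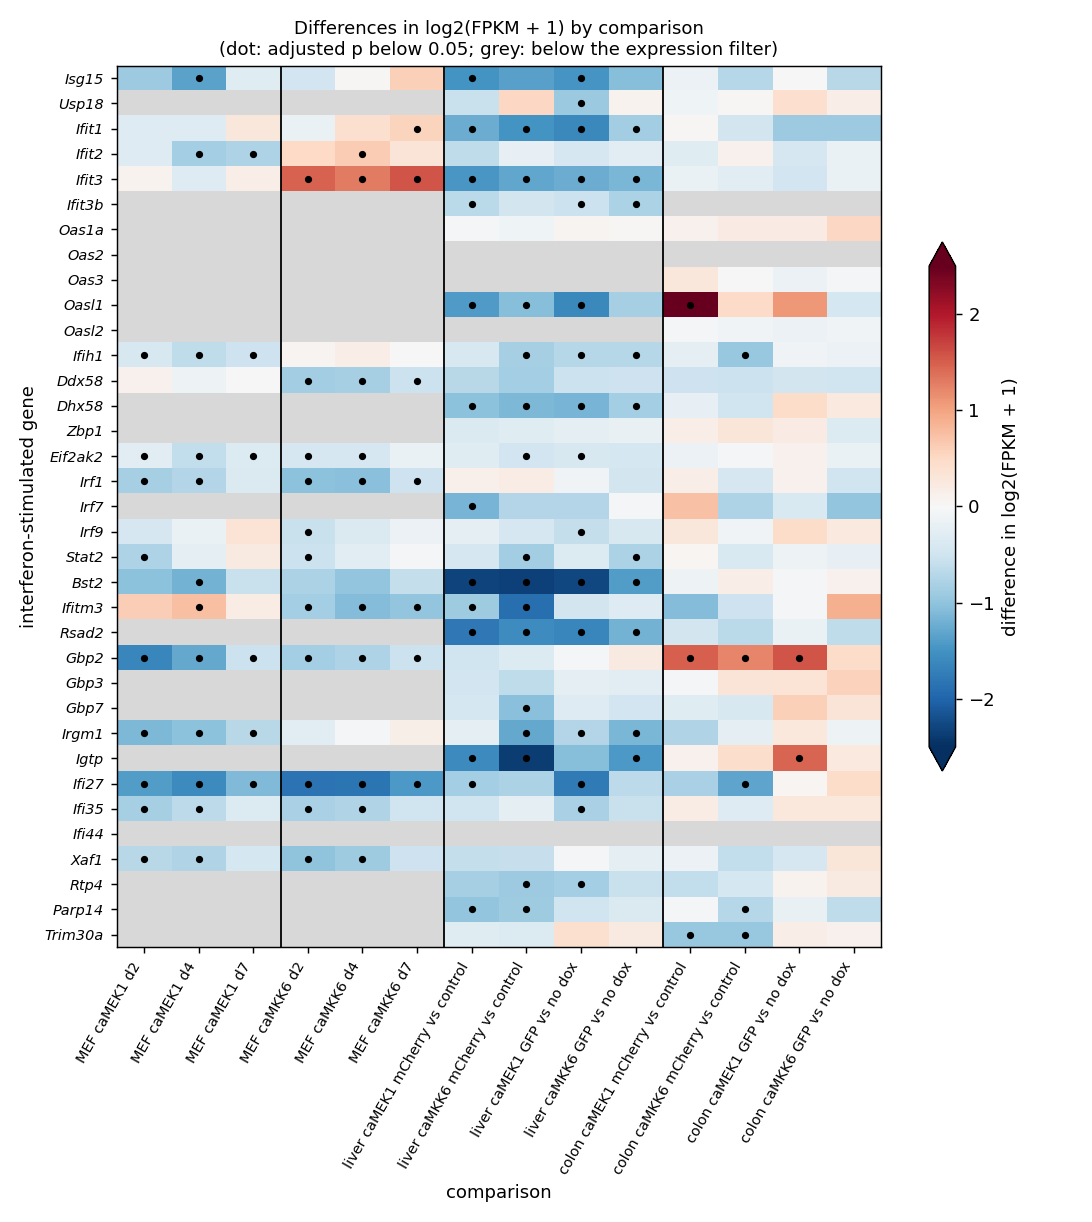
Difference in log2(FPKM + 1) for 35 interferon-stimulated genes (rows) in 14 comparisons (columns; colour bar: red higher, blue lower than the comparator; dot: adjusted p under 0.05; grey: under the filter). Most dots in MEFs and liver sit on blue cells, while the colon columns hold few dots.

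In caMEK1 MEFs the tested members were mostly lower after doxycycline. At day 2, 9 of the 17 members that passed the filter fell and 0 rose, where 39.3% of all genes were called, 19.8% as lower. At day 4, 11 fell and 1 rose, where 57.8% were called, 29.3% as lower. At day 7, 6 fell and 0 rose, where 62.1% were called, 28.7% as lower and 33.4% as higher, the lower share being near that of the members. The median difference of the tested members was -0.69, -0.65 and -0.35 at days 2, 4 and 7, beside -0.01, -0.01 and 0.03 over all genes, and the 3 time points share their untreated libraries. For the 0 rises, limma gave 1 member higher at an unadjusted p under 0.05 at day 2 and 0 at day 7, and voom on recovered reads called 0 at both.

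Gbp2, a guanylate-binding GTPase that attacks pathogen-containing vacuoles, stood at 4.84, 4.23 and 3.78 FPKM in untreated caMEK1 MEFs, at 0.612, 0.737 and 0.724 at day 2, at 1.32, 1.12 and 1.09 at day 4 and at 2.91, 3.21 and 1.86 at day 7. Every treated library lay below every untreated one, and the gap was widest at day 2. Gbp2 fell by 1.64 ± 0.20 (SE) on the log2 scale at day 2 (adjusted p = 1.7e-06), by 1.27 at day 4 and by 0.54 at day 7. Irgm1, an immunity-related GTPase, listed 5.27, 6.26 and 8.28 FPKM without doxycycline, 2.57, 2.18 and 2.66 at day 2, 2.29, 2.98 and 2.88 at day 4 and 2.69, 3.7 and 4.77 at day 7. Its treated and untreated libraries did not overlap at any time, with falls of 1.12 ± 0.18, 1.02 and 0.69. Ifi27, a small mitochondrial and membrane protein, went from 22.4, 20.4 and 32.5 FPKM to 8.91, 9.16 and 8.14 at day 2, 7.41, 8.45 and 6.78 at day 4 and 11.6, 13.6 and 8.12 at day 7. All 9 treated values lay under the 3 untreated ones, and Ifi27 fell by 1.40 ± 0.43, 1.59 and 1.11.

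Among transcription factors, Irf1 fell by 0.82 ± 0.18 at day 2 and 0.72 at day 4, and Stat2, the partner of IRF9, fell by 0.77 ± 0.16 at day 2. Stat2 listed 2.46, 2.87 and 2.79 FPKM untreated, 1.19, 1.09 and 1.24 at day 2 and 3.94, 4.24 and 2.17 at day 7, where it was not called. Of the sensors, Ifih1 (MDA5), which detects long viral RNA, fell by 0.40, 0.63 and 0.51 at days 2, 4 and 7, and Eif2ak2 (PKR), the kinase that halts translation, fell by 0.29, 0.62 and 0.35. Ddx58 (RIG-I) was called at no time, with differences of 0.12, -0.13 and -0.01. Ifi35 fell by 0.83 and 0.65 at days 2 and 4 and the pro-apoptotic Xaf1 by 0.69 and 0.75. Day 4 added the ubiquitin-like modifier Isg15, which fell by 1.34 ± 0.38, and Bst2 (tetherin, which holds budding virions at the membrane), which fell by 1.17 ± 0.42. Ifit2, an IFIT protein that binds RNA, fell by 0.86 at day 4 and 0.77 at day 7.

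Ifitm3 went the other way. It listed 266, 254 and 278 FPKM in untreated caMEK1 MEFs, 426, 417 and 386 at day 2, 484, 487 and 383 at day 4 and 388, 359 and 201 at day 7. The day 2 and day 4 libraries all lay above the untreated ones and day 7 overlapped them. It rose by 0.75 ± 0.29 at day 4 (adjusted p = 0.032) and was not called at day 2 (0.62) or day 7 (0.19).

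Without untreated replicate 3, the day 2 count of caMEK1 MEFs dropped to 4. Macrophage markers summed to 27.34 to 48.62 FPKM in untreated and 101.6 to 264.5 in day 7 caMEK1 MEFs, and fibroblast markers to 1025 to 1337 and 304.1 to 436.9; their part in these differences was not tested.

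In caMKK6 MEFs, too, most called members were lower at days 2 and 4, but Ifit3 rose. At day 2, 10 members fell and 1 rose, where 39.2% of all genes were called, 24.8% as lower. At day 4, 8 fell and 2 rose (44.8% of genes called, 27.7% as lower), and at day 7, 5 fell and 2 rose (40.8%, 24.0% as lower and 16.8% as higher), counts near those shares of all genes. The medians of the tested members were -0.55, -0.41 and -0.16, beside -0.06, -0.06 and -0.04 over all genes.

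Ifit3, which binds and stabilises IFIT1 in an RNA-binding complex, stood at 0.814, 0.365 and 0.625 FPKM untreated, 4.6, 3.82 and 2.26 at day 2, 2.63, 4.73 and 1.86 at day 4 and 4.48, 3.77 and 3.08 at day 7. All treated libraries lay above all untreated ones. Ifit3 rose by 1.48 ± 0.23, 1.30 ± 0.23 and 1.58 ± 0.23 (adjusted p = 7.1e-05, 0.00015 and 2.4e-05). Ifit2 rose by 0.64 at day 4 and Ifit1 by 0.56 at day 7. Untreated MEF libraries of both genotypes held Ifit1 at 0.3463 to 0.693 FPKM, so it passed the filter of 1 FPKM through treated libraries alone. Ifit3 also lay under 1 FPKM in the untreated caMKK6 libraries. For such low genes the filter favours calls as higher. Ifit3b, a near copy of Ifit3 whose reads the counting may have shared, stayed under the filter at up to 0.951 FPKM.

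**Figure D2:**
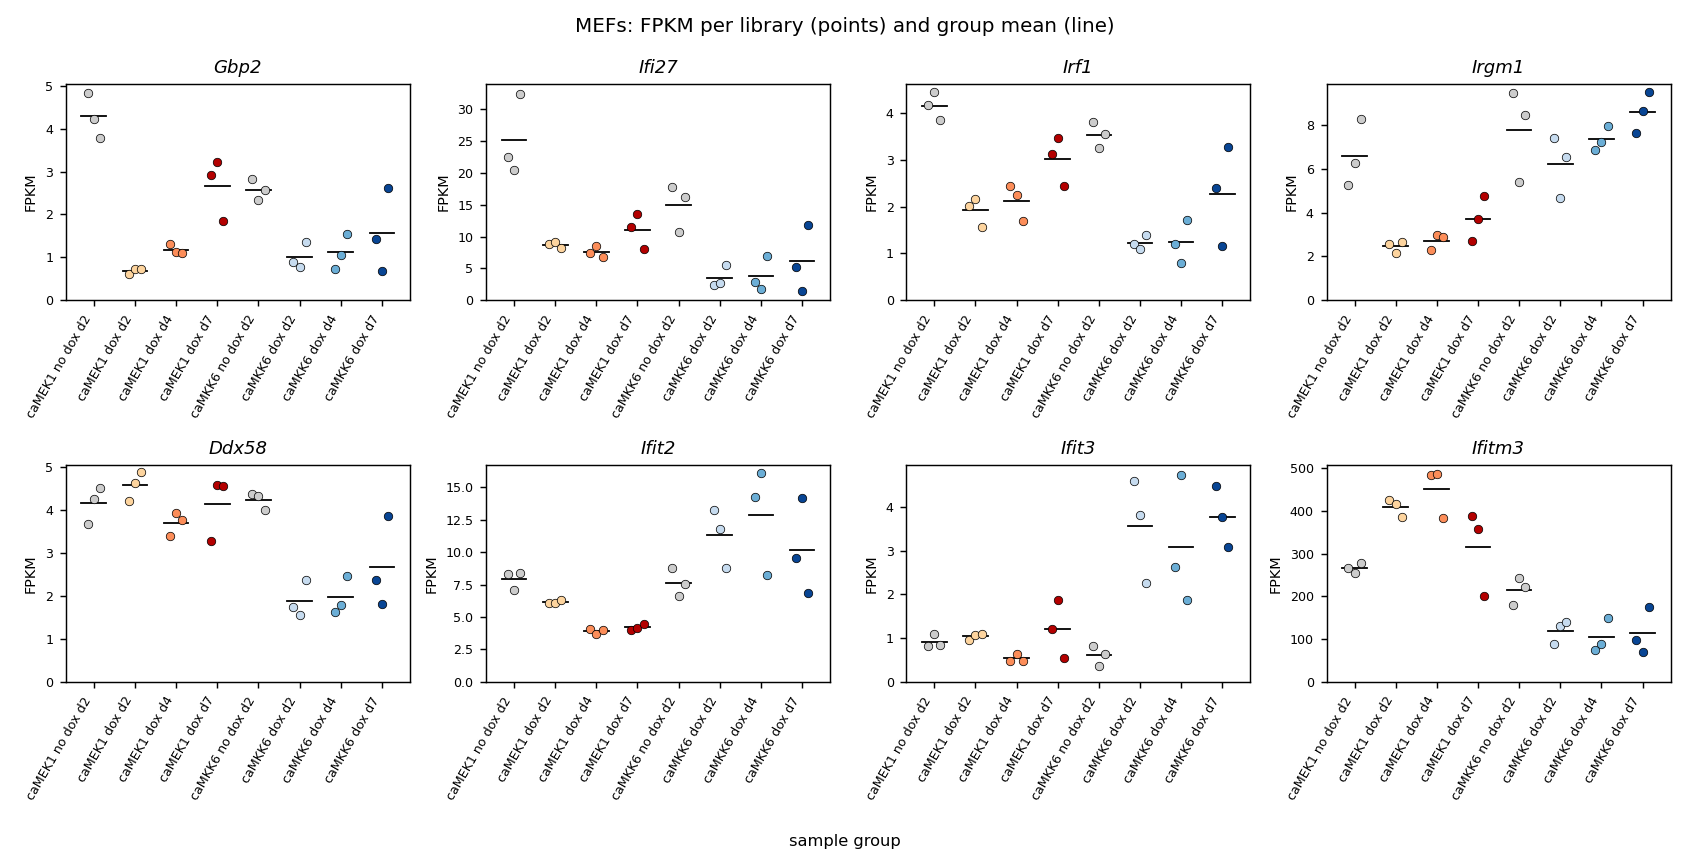
FPKM of 8 members in each MEF library (points) with group means (lines), by kinase and day. Ifit3 lies at 1.86 to 4.73 FPKM in treated caMKK6 libraries and at 0.365 to 0.814 without doxycycline, while Ifitm3 sits higher in caMEK1 and lower in caMKK6 treated libraries than in untreated ones at days 2 and 4.

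Ifitm3 fell in caMKK6 MEFs: 179, 242 and 221 FPKM without doxycycline became 89.7, 130 and 140 at day 2, 75.3, 88.5 and 150 at day 4 and 98.4, 68.7 and 176 at day 7. Each treated library lay under each untreated one, and it fell by 0.85, 1.08 ± 0.29 and 1.00. Ddx58 went from 4.38, 4.33 and 3.99 FPKM to 1.75, 1.54 and 2.37 at day 2, 1.63, 1.8 and 2.47 at day 4 and 2.37, 1.82 and 3.86 at day 7. It fell by 0.87 ± 0.16, 0.83 and 0.54, with no overlap between treated and untreated libraries. Ifi27 listed 17.9, 10.7 and 16.3 FPKM, then 2.41, 2.69 and 5.57, 2.94, 1.77 and 6.95, and 5.19, 1.46 and 11.9 at days 2, 4 and 7. It fell by 1.84 ± 0.43, 1.82 and 1.43, and day 7 replicate 3 overlapped the untreated libraries.

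Gbp2 fell by 0.84, 0.78 and 0.54 and Irf1 by 1.03, 1.04 and 0.52 at days 2, 4 and 7; for both, day 7 replicate 3 was near the untreated level, at 2.61 and 3.27 FPKM. At days 2 and 4, Eif2ak2 fell by 0.42 and 0.41, Ifi35 by 0.81 and 0.75 and Xaf1 by 1.00 and 0.89. At day 2 alone, Irf9 fell by 0.55 and Stat2 by 0.53. Isg15, Ifih1, Bst2 and Irgm1 were not called at any day.

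Without the 5 libraries that listed the MEK1 transgene, caMKK6 counts were 5 (1 higher, 4 lower) at day 2, 5 (1 higher, 4 lower) at day 4 and 2 (1 higher, 1 lower) at day 7; that leaves 1 untreated and 1 day 2 library, assumed to vary like the rest. At day 7 the count became 3 higher and 0 lower without treated replicate 2, and 4 without untreated replicate 1. Macrophage markers summed to 32.77 to 228.6 FPKM in untreated caMKK6 MEFs and 85.19 to 725.3 at day 7; their part was not tested.

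The change at day 7 differed between the kinases for 5 of the 17 members, where 37.8% of all genes were called. Written as caMEK1 minus caMKK6, the difference was -1.42 ± 0.32 for Ifit3, -1.09 ± 0.29 for Ifit2, -0.85 ± 0.26 for Irgm1, -0.51 ± 0.20 for Ifih1 and 1.19 ± 0.41 for Ifitm3. The count was 1 without the libraries listing the MEK1 transgene, and 3 without caMEK1 day 7 replicate 2, caMKK6 untreated replicate 2 or 3, or caMKK6 day 7 replicate 1. Untreated MEFs of both genotypes differed in 0 members by limma (6.48% of all genes called, 4.08% as higher and 2.40% as lower), with 1 higher in caMEK1 at an unadjusted p under 0.05 and 0 by voom.

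In liver, members were called lower in mCherry-positive cells and in the GFP-positive cells around them, under both kinases. Of the 35 in the table, 5 (Ifit1, Ifit3, Dhx58, Bst2 and Rsad2) fell in all 4 of these comparisons, 5 in 3, 7 in 2, 5 in 1 and 13 in none, of which 4 stayed under the filter. How often genes at large fell in all 4 was not counted, so this overlap has no background beside it. In those 4 comparisons 0 rose, where limma gave 0 higher even at an unadjusted p under 0.05 and voom 0. In caMEK1 mCherry cells, 13 of the 31 members that passed the filter fell against Control mCherry cells, where 27.1% of all genes were called, 16.3% as lower. In caMKK6 mCherry cells, 15 fell (38.2% of genes called, 9.29% as lower). In caMEK1 GFP cells, 16 fell against untreated caMEK1 GFP cells (38.5% called, 32.0% as lower), and in caMKK6 GFP cells, 10 fell (19.0% called, 13.8% as lower and 5.21% as higher). Median differences of the tested members were -0.63, -0.83, -0.59 and -0.51 in that order, beside -0.04, 0.25, -0.25 and -0.07 over all genes. The mCherry comparisons share their Control libraries, and mCherry and GFP cells came from the same animals, so the comparisons are not independent.

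**Figure D3:**
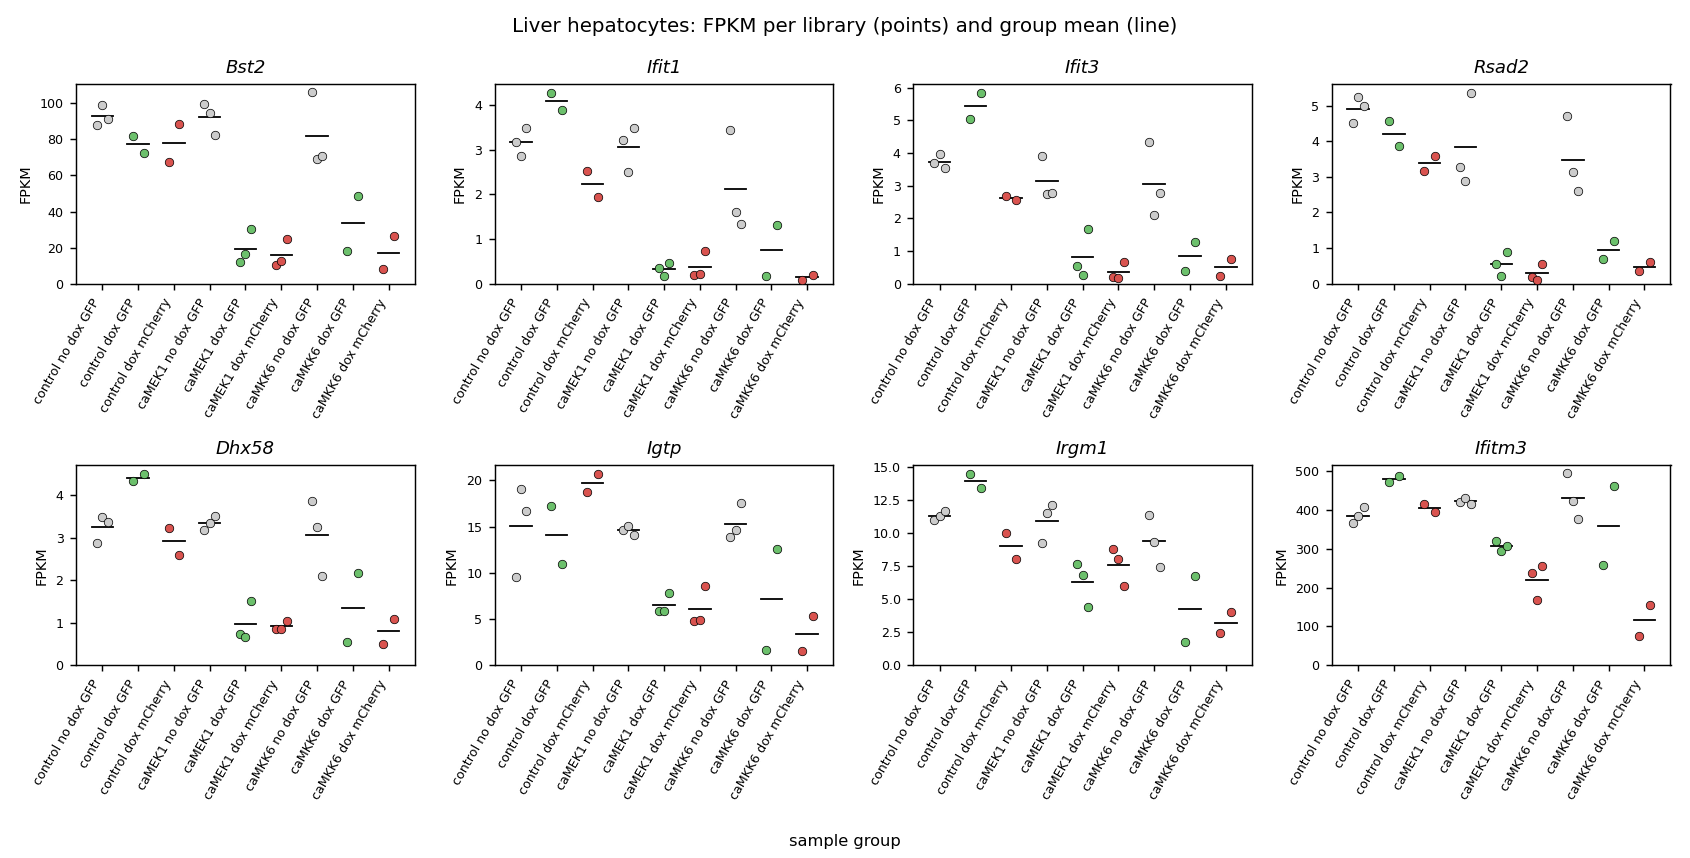
FPKM of 8 members in each liver library (points) with group means (lines). For Bst2, Ifit1, Ifit3, Rsad2 and Dhx58 the treated caMEK1 and caMKK6 libraries of both colours lie below all Control libraries; Bst2 reaches at most 48.6 FPKM there and at least 67.7 FPKM in the Control libraries.

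Bst2 stood at 67.7 and 88.7 FPKM in Control mCherry cells, 10.2, 12.7 and 24.7 in caMEK1 mCherry cells and 7.93 and 26.5 in caMKK6 mCherry cells. Its GFP cells listed 99.6, 94.6 and 82.6 in untreated and 12.1, 16.3 and 30.1 in treated caMEK1 animals, and 106, 69.3 and 70.9 in untreated and 18.4 and 48.6 in treated caMKK6 animals. In each comparison every treated kinase library was below every comparator. Bst2 fell by 2.31 ± 0.46, 2.33 ± 0.51, 2.28 ± 0.41 and 1.39 ± 0.46 in caMEK1 mCherry, caMKK6 mCherry, caMEK1 GFP and caMKK6 GFP cells (adjusted p = 0.0013, 0.0026, 0.00053 and 0.043). Without doxycycline the 3 genotypes covered 69.3 to 106 FPKM.

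Rsad2 (viperin), a radical SAM enzyme that makes a chain-terminating nucleotide, listed 3.16 and 3.6 FPKM in Control mCherry cells, 0.196, 0.109 and 0.56 in caMEK1 and 0.349 and 0.62 in caMKK6 mCherry cells. It fell by 1.78 ± 0.23 and 1.57 ± 0.26 there, and by 1.62 and 1.18 in the caMEK1 and caMKK6 GFP cells. Ifitm3 stood at 416 and 395 FPKM in Control mCherry cells, 238, 169 and 256 in caMEK1 and 75.6 and 156 in caMKK6 mCherry cells, with no overlap. It fell by 0.90 and 1.89 ± 0.30, but the caMEK1 value was 0.06 after quantile normalization, and in GFP cells it was not called (-0.46 and -0.31).

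Of the 4 IFIT genes, Ifit1 and Ifit3 fell in all 4 liver comparisons. Ifit1, which binds viral RNA lacking cap methylation, listed 2.52 and 1.94 FPKM in Control mCherry cells, 0.187, 0.213 and 0.725 in caMEK1 and 0.0898 and 0.202 in caMKK6 mCherry cells. Its GFP values were 3.22, 2.49 and 3.49 in untreated and 0.357, 0.177 and 0.474 in treated caMEK1 animals, and 3.44, 1.6 and 1.34 against 0.181 and 1.31 in caMKK6 animals. None of these groups overlapped, although caMKK6 GFP replicate 2 came close to its comparator. Ifit1 fell by 1.25, 1.49, 1.60 ± 0.24 and 0.86 and Ifit3 by 1.45, 1.30, 1.24 and 1.15, in the order of the comparisons above. Ifit3b fell by 0.66, 0.54 and 0.79 in caMEK1 mCherry, caMEK1 GFP and caMKK6 GFP cells, at 2.18 FPKM or less. Ifit2 was not called.

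Of the sensors, Dhx58 (LGP2), a regulator of RIG-I and MDA5, went from 3.23 and 2.6 FPKM to 0.844, 0.864 and 1.05 in caMEK1 and 0.511 and 1.09 in caMKK6 mCherry cells, and fell by 1.02, 1.13, 1.17 and 0.86. Ifih1 fell by 0.83, 0.72 and 0.71 in caMKK6 mCherry, caMEK1 GFP and caMKK6 GFP cells and was -0.39 and not called in caMEK1 mCherry cells. Eif2ak2 fell by 0.47 in caMKK6 mCherry and 0.41 in caMEK1 GFP cells. Ddx58 and Zbp1, a sensor of Z-form nucleic acid, were not called. Oasl1, an oligoadenylate synthetase-like protein without synthetase activity, fell by 1.41, 1.06 and 1.61 in caMEK1 mCherry, caMKK6 mCherry and caMEK1 GFP cells. Oas1a, an oligoadenylate synthetase of a family of close copies, was not called in liver.

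Of the GTPases, Igtp, Irgm1 and Gbp7 fell in at least 1 liver comparison. Igtp (Irgm3), an immunity-related GTPase, stood at 18.7 and 20.7 FPKM in Control mCherry cells, 4.8, 4.85 and 8.57 in caMEK1 and 1.49 and 5.31 in caMKK6 mCherry cells. It fell by 1.59, 2.38 ± 0.54 and 1.43 in caMEK1 mCherry, caMKK6 mCherry and caMKK6 GFP cells, and all mCherry kinase libraries lay under both Control libraries. Irgm1 fell by 1.27, 0.73 and 1.14 in caMKK6 mCherry, caMEK1 GFP and caMKK6 GFP cells and Gbp7 by 1.05 in caMKK6 mCherry cells. Gbp2 and Gbp3 were not called. Reads may be shared between copies of the Gbp cluster and between Irgm1 and Igtp.

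Among transcription factors, Irf7, which drives interferon alpha genes, fell by 1.17 in caMEK1 mCherry cells, Irf9 by 0.59 in caMEK1 GFP cells and Stat2 by 0.87 and 0.79 in caMKK6 mCherry and GFP cells, while Irf1 was not called. Isg15 listed 5.28 and 3.72 FPKM in Control mCherry cells, 0.202, 1.34 and 1.55 in caMEK1 and 0.113 and 3.06 in caMKK6 mCherry cells. It fell by 1.50 and 1.48 in caMEK1 mCherry and GFP cells and was not called in caMKK6 cells (-1.36 and -1.07), whose replicates differed widely. Usp18, the protease that removes ISG15 and dampens IFNAR signalling, fell by 0.92 in caMEK1 GFP cells. Ifi27 fell by 0.84 and 1.77 in caMEK1 mCherry and GFP cells, Rtp4 by 0.92 and 0.85 in caMKK6 mCherry and caMEK1 GFP cells, Parp14 by 0.98 and 0.89 in caMEK1 and caMKK6 mCherry cells and Ifi35 by 0.82 in caMEK1 GFP cells. Xaf1 and Trim30a were not called.

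Libraries that stood apart moved these liver counts. The caMEK1 mCherry count was 5, 6 and 8 without Control mCherry replicate 1, Control mCherry replicate 2 and caMEK1 mCherry replicate 1, and the caMKK6 mCherry count 7, 9 and 3 without Control mCherry replicate 1, Control mCherry replicate 2 and caMKK6 mCherry replicate 1. The caMKK6 GFP count was 2, 5, 0 and 19 without untreated replicate 1, untreated replicate 2, treated replicate 1 and treated replicate 2. In caMKK6 animals, replicate 1 had the lower value for 27 of the 31 tested members in mCherry cells and for 29 in GFP cells. The same count over all genes was not made. Replicate 1 also had fewer genes at 1 FPKM than replicate 2, with 8879 beside 9193 in mCherry cells and 8610 beside 8961 in GFP cells. It listed the human MKK6 transgene at 215.9 FPKM in mCherry cells, beside 1211 in replicate 2. The part of these animals in the result was not tested.

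Against other comparators the counts were 19 and 20 members lower for caMEK1 and caMKK6 mCherry cells set against untreated GFP cells of their own genotype, and 23 and 15 for GFP cells set against Control GFP cells with doxycycline, the libraries that listed mCherry at 677.8 and 749.6 FPKM. The shares of all genes against these comparators are not given here, so whether the counts exceed them cannot be read. With median scaling, which centres each library, the split of calls over all genes moved from 75.7% to 39.4% higher for caMKK6 mCherry and from 16.8% to 38.6% for caMEK1 GFP cells, and the member counts were 0 higher with 21 lower and 0 higher with 11 lower. Hepatocyte markers summed to 72985 to 105023 FPKM in caMEK1 mCherry and 76051 to 85435 in caMEK1 GFP cells after doxycycline, beside 43072 to 51476 without it. Macrophage markers summed to 34.62 to 59.4, 36.65 to 85.76 and 37.07 to 59.79 FPKM in caMEK1, caMKK6 and Control mCherry cells, so that these 3 ranges overlap. In GFP cells they summed to 81 to 831.1 after and 42.54 to 77.56 before doxycycline for caMEK1, and 73.44 to 333.1 and 19.71 to 180.8 for caMKK6, where the ranges overlap. Of the 12 macrophage markers, 5 and 1 were called higher there. Of the 7 endothelial markers, 2 and 1 were called higher, with median differences of 1.11 and 1.27. Of the 2 lymphocyte markers tested, 1 was called lower in each comparison. In Control GFP cells the macrophage markers summed to 139.7 to 474.1 after and 41.25 to 164.1 before doxycycline. Lymphocyte markers stayed at or under 4.275. Neutrophil markers summed to 4.591 to 22.83 in caMEK1 mCherry cells, beside 1.069 to 1.757 in their comparator, Control mCherry cells. They summed to 8.343 to 52.19 in treated caMEK1 GFP cells, beside at most 0.1196 in untreated ones and 3.181 to 4.283 in treated Control GFP cells. The part of other cells in the liver results was not tested.

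Between mCherry and GFP cells of the same animals, few members differed in liver by the main test, which did not use the pairing. The shares of all genes given are those of the main test. Counts with the animal as a block have no such share beside them, so whether they exceed it cannot be read. In caMEK1 animals limma called 0 of 31 (4.71% of all genes called), with 1 lower at an unadjusted p under 0.05 and 0 by voom; with the animal as a block, 2 were lower, and leaving out mCherry replicate 3 or GFP replicate 1 gave 1. In caMKK6 animals Ifitm3 alone was called, lower in mCherry cells by -1.66 ± 0.30 (4.28% of all genes called, 0.289% as lower). With the animal as a block the count was 3, all lower, and without GFP replicate 1 it was 10.

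The mCherry cells of the kinases differed in 3 members, where 31.7% of all genes were called. As caMEK1 minus caMKK6, the difference was 1.04 ± 0.31 for Irgm1, 1.00 ± 0.27 for Ifitm3 and -1.07 ± 0.27 for Usp18. Median scaling gave 6 higher and 0 lower, with the median of all genes moving from -0.31 to 0.00, quantile normalization gave 5 higher and 1 lower, and without caMKK6 mCherry replicate 1 the count was 0. The GFP changes differed between kinases in 0 members (0.357% of genes called; 2 lower at an unadjusted p under 0.05, 0 by voom), with 1 and 2 called without caMKK6 untreated replicate 1 and treated GFP replicate 2. In Control animals doxycycline changed 0 members in GFP cells by limma (0.0868% of genes called, 0.0482% as higher) and 0 by voom. There 9 members were higher at an unadjusted p under 0.05, and the median of the tested members was 0.35, beside 0.04 over all genes, a direction opposite to that in the kinase animals. In the same comparison the 12 macrophage markers had a median difference of 1.63 and the 7 endothelial markers one of 0.59, with 0 called by limma, and neutrophil markers summed to 0.08162 to 0.534 FPKM before and 3.181 to 4.283 after doxycycline. The part of these cells was not tested.

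**Figure D4:**
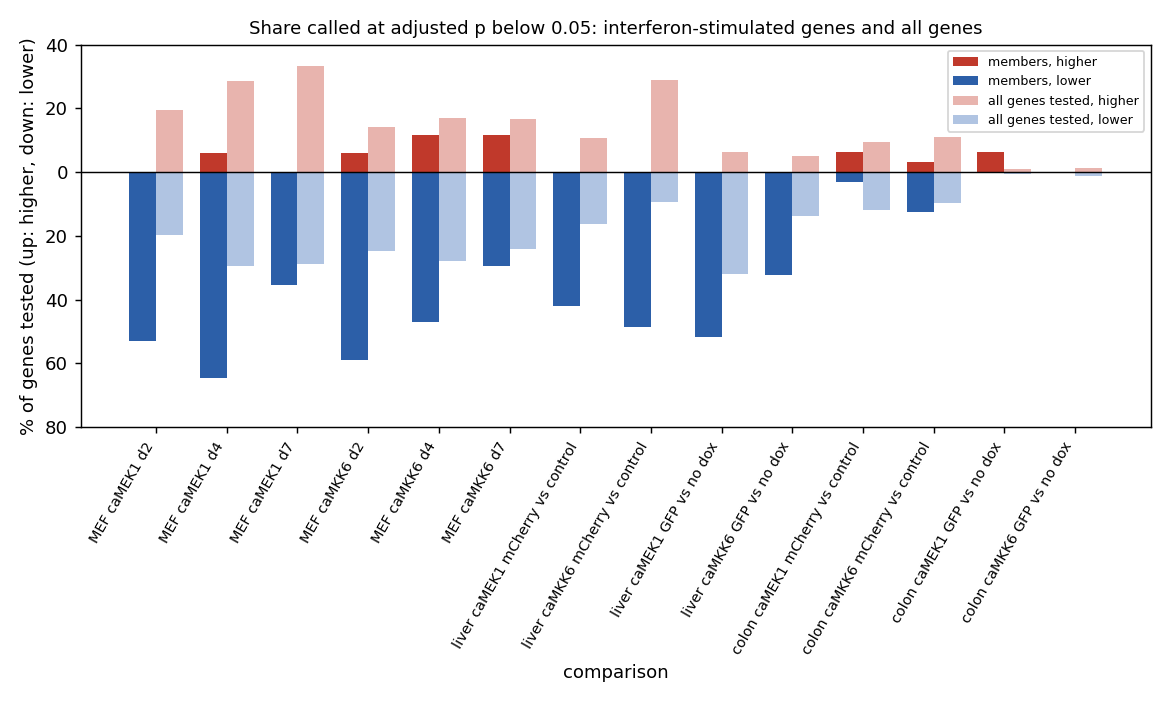
Share of tested interferon-stimulated genes (dark bars) and of all tested genes (pale bars) called at an adjusted p under 0.05 in 14 comparisons, in percent, higher upward and lower downward from 0. The members' lower share is 41.9% and 48.4% in caMEK1 and caMKK6 liver mCherry cells, beside 16.3% and 9.29% of all genes, and the colon bars are short.

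In colon epithelium few members were called, and they went both ways. In caMEK1 mCherry cells 2 members rose and 1 fell of the 32 that passed the filter, against Control mCherry cells. There 21.5% of all genes were called, 9.54% as higher and 12.0% as lower. In caMKK6 mCherry cells 1 rose and 4 fell (20.8% of genes called, 11.1% as higher and 9.70% as lower). In GFP cells against their untreated genotype, 2 rose and 0 fell under caMEK1 (1.33% of genes called, 0.910% as higher). There 1 was lower at an unadjusted p under 0.05 and 0 by voom. Under caMKK6 limma called 0 (2.60% of genes called), with 1 higher and 3 lower at an unadjusted p under 0.05 and 0 by voom. Median differences of the tested members were -0.12, -0.35, 0.08 and -0.06, beside -0.14, -0.06, -0.02 and -0.01 over all genes.

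Oasl1, which fell in liver, rose in caMEK1 colon mCherry cells. It stood at 6.65 and 3.26 FPKM in Control mCherry cells, 44.2 and 82.4 in caMEK1 mCherry cells, and 9.56, 6.94 and 4.9 in caMKK6 mCherry cells. GFP cells listed 4.38, 2.16 and 6.1 in untreated and 6.7 and 13.2 in treated caMEK1 animals, 9.02, 4.94 and 6.06 in untreated and 7.49, 4.5 and 2.66 in treated caMKK6 animals, and 2.71, 2.27 and 2.41 in untreated and 9.14 and 2.61 in treated Control animals. Both caMEK1 mCherry libraries exceeded every other colon library. Oasl1 rose by 3.43 ± 0.50 (adjusted p = 9.0e-05) against Control mCherry cells and was 2.55 ± 0.50 higher than in GFP cells of the same animals. Of its relatives, Oas1a lay at 14.8 and 11 FPKM in caMEK1 and 15.5 and 9.05 in Control mCherry cells, and Oasl2 at 0.842 and 1.24 beside 1.48 and 0.763, and neither was called.

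**Figure D5:**
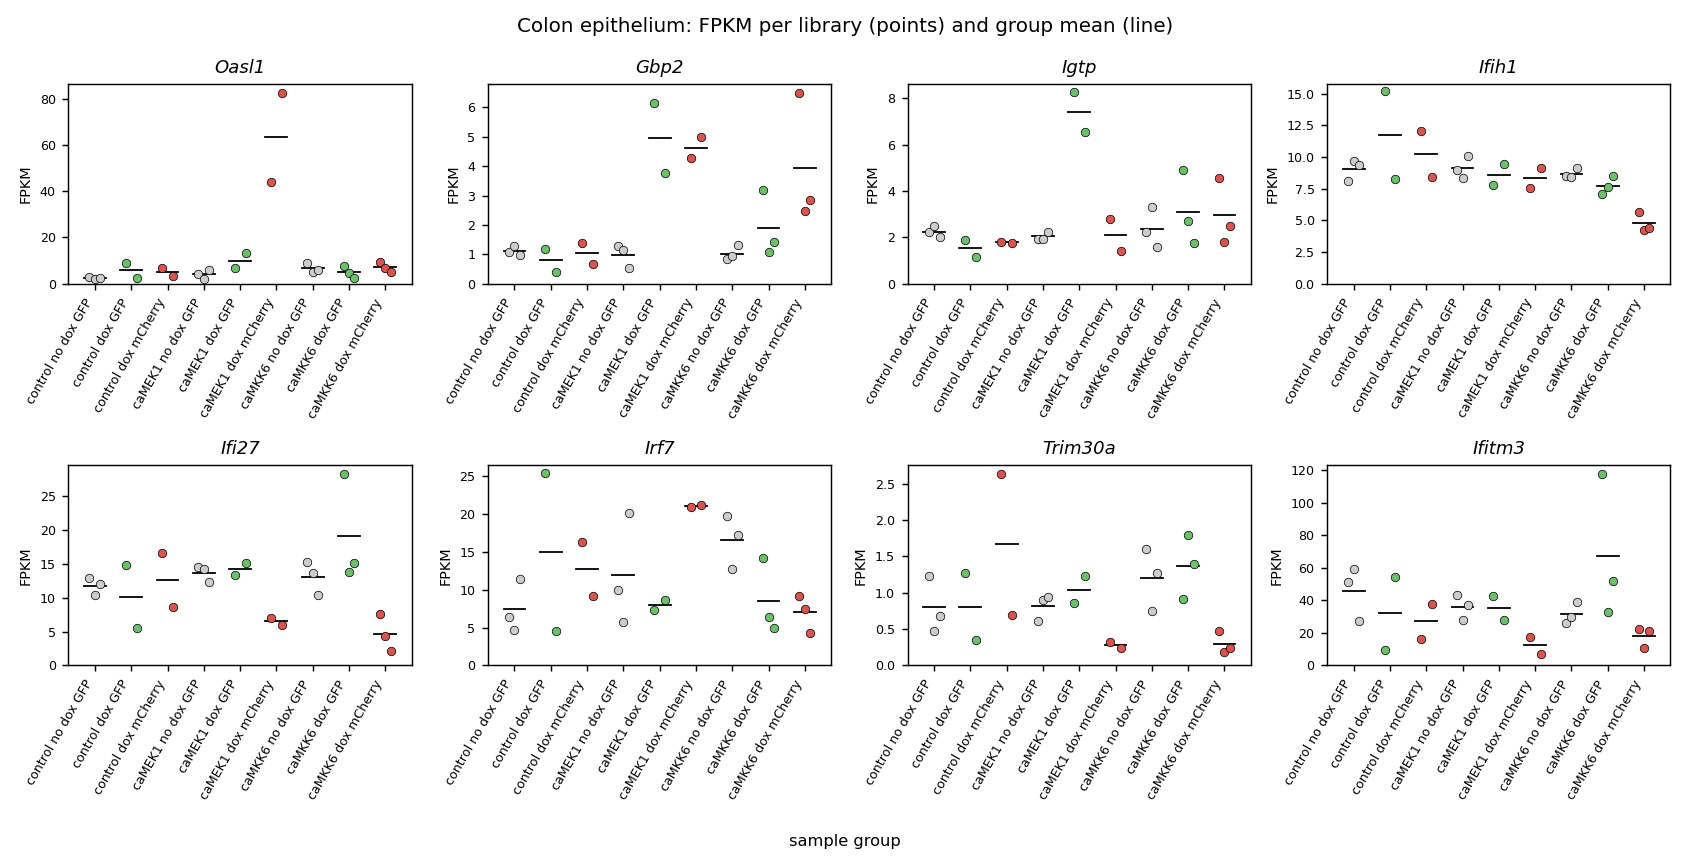
FPKM of 8 members in each colon library (points) with group means (lines). Oasl1 reaches 44.2 and 82.4 FPKM in caMEK1 mCherry cells, and Gbp2 is higher in treated caMEK1 libraries of both colours than in untreated ones.

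Gbp2, which fell in MEFs, rose in colon mCherry cells of both kinases and in caMEK1 GFP cells. It listed 1.39 and 0.675 FPKM in Control mCherry cells, 4.26 and 4.98 in caMEK1 and 6.5, 2.47 and 2.86 in caMKK6 mCherry cells. In caMEK1 GFP cells it went from 1.3, 1.15 and 0.52 to 6.15 and 3.76. No kinase library overlapped its comparator, and Gbp2 rose by 1.49 ± 0.36, 1.22 ± 0.33 and 1.57 ± 0.33 (adjusted p = 0.0065, 0.013 and 0.018). Under caMKK6 the GFP cells held 0.834, 0.936 and 1.32 before and 3.18, 1.09 and 1.44 after doxycycline, and it was not called. Igtp rose by 1.46 ± 0.30 in caMEK1 GFP cells, from 1.93, 1.95 and 2.25 to 8.27 and 6.53 FPKM, with no overlap.

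Of the members that fell in colon mCherry cells, Trim30a, a ubiquitin ligase that restrains inflammatory signalling, fell by 0.95 under caMEK1 and 0.94 under caMKK6. It was the 1 member called lower under caMEK1, where voom on recovered reads did not call it (adjusted p = 0.09) and where the adjusted p was 0.4 without Control mCherry replicate 1. Its levels were 2.64 and 0.695 FPKM in Control, 0.326 and 0.241 in caMEK1 and 0.474, 0.181 and 0.243 in caMKK6 mCherry cells, so that the Control libraries themselves lay far apart. Ifih1 went from 12.1 and 8.41 to 5.69, 4.23 and 4.37 FPKM and fell by 0.95 ± 0.20 under caMKK6. Ifi27 fell by 1.32 and Parp14, an ADP-ribosyltransferase, by 0.72 under caMKK6; with the animal as a block Parp14 had an adjusted p of 0.056. Irf7 listed 20.9 and 21.2 FPKM in caMEK1, 9.22, 7.52 and 4.34 in caMKK6 and 16.4 and 9.2 in Control mCherry cells and was not called.

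The colon counts moved when single libraries were left out. Without caMEK1 mCherry replicate 2 the caMEK1 mCherry count was 1. The caMKK6 mCherry count was 1 (1 higher, 0 lower) without Control mCherry replicate 1, 3 (0 higher, 3 lower) without Control replicate 2, and 3 and 2 without caMKK6 mCherry replicates 2 and 3. For caMEK1 GFP cells it was 1, 0, 0 and 1 without untreated replicate 1, untreated replicate 3, treated replicate 1 and treated replicate 2. Treated caMKK6 animal 1 stood above the other two for Isg15, at 4.62, 0.264 and 0.379 FPKM in mCherry and 8.7, 0.648 and 0.857 in GFP cells. That animal's mCherry cells also listed EGFP at 179.2 FPKM, beside 3.356 and 15.09. In treated Control animals Irf7 was 25.4 and 4.6 in GFP cells.

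Of 12 macrophage markers, 4 to 8 were at 0 in every library of a colon group, and the list summed to at most 6.079 FPKM in colon, other than up to 26.12 in treated caMKK6 GFP cells. The neutrophil list summed to 590.2 to 1012 FPKM in caMEK1 mCherry cells, of which Ly6g gave 588.4 and 1010, while S100a8 and S100a9 lay at or under 1.662 and Csf3r at 0.

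mCherry and GFP cells of the same colon animals were compared next, again by a main test that did not use the pairing. Here too the shares of all genes are those of the main test. Whether the counts with the animal as a block exceed their own share cannot be read. In caMEK1 animals 1 was higher in mCherry cells (Oasl1) and 3 were lower, Igtp (-1.47 ± 0.33), Irgm1 (-1.02) and Gbp7 (-0.84), where 13.4% of all genes were called; with the animal as a block 2 were higher and 9 lower, and without mCherry replicate 2 or GFP replicate 1 the count was 0. Igtp was at 2.77 and 1.41 FPKM in mCherry and 8.27 and 6.53 in GFP cells. Over all genes 5.71% were called higher and 7.72% lower in caMEK1 animals. In caMKK6 animals 0 were higher (1 at an unadjusted p under 0.05, 0 by voom) and 7 lower. There 21.3% of all genes were called, 8.24% as higher and 13.1% as lower. The 7 were Ifi27 (-1.87 ± 0.35), Ifitm3 (-1.72), Bst2 (-1.09), Dhx58 (-0.91), Trim30a (-0.86), Ifih1 (-0.61) and Gbp7 (-0.59). With the animal as a block 1 was higher and 13 lower, and the count was 12, 1, 1 and 4 without mCherry replicates 1, 2 and 3 and GFP replicate 2. Ifi27 lay at 7.61, 4.3 and 2.13 FPKM in mCherry and 28.3, 13.8 and 15.2 in GFP cells, lower in all 3 animals. Lymphocyte markers summed to 0.7338 to 10.74 FPKM in the treated caMKK6 GFP cells and 0.04964 to 0.2691 in the mCherry cells, and endothelial markers to 1.325 to 12.75 and 0.7759 to 1.575, with 1 of 2 tested markers called lower for each list. Their part in these differences was not tested.

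Between the kinases, caMEK1 mCherry cells exceeded caMKK6 mCherry cells in 3 members, where 20.7% of all genes were called, 8.56% as higher. The 3 were Oasl1 by 2.96 ± 0.45, Ifih1 by 0.71 ± 0.20 and Parp14 by 0.70 ± 0.23. Parp14 had an adjusted p of 0.062 with the animal as a block, and the count was 1 without caMEK1 mCherry replicate 2 or caMKK6 mCherry replicate 2 or 3. The GFP changes differed between kinases in 0 members by limma (0.0433% of genes called; 3 higher at an unadjusted p under 0.05, 0 by voom). Doxycycline in Control animals changed 0 members in GFP cells (0% of genes called; 0 at an unadjusted p under 0.05 and 0 by voom), and 2 were called without Control GFP replicate 2 with doxycycline.

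The interferons themselves were scarcely seen. Of 21 interferon genes in the table, all 21 were listed at 0 in all 23 liver libraries, 19 in all colon libraries and 16 in all MEF libraries. Ifnk, a keratinocyte type I interferon, alone reached 1 FPKM, with up to 1.81 in MEFs and 1.232 in colon, and rose by 0.69 and 0.91 in caMEK1 MEFs at days 2 and 4. Ifnb1 was above 0 in 1 MEF library, at 0.09228 FPKM, and Ifng was listed at 0 throughout.

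Of the receptors and JAK-STAT components, 6 rose and 3 fell of 13 tested in caMEK1 MEFs at day 2, beside 19.5% and 19.8% of all genes, with Socs3, a feedback inhibitor of JAKs, at 1.33, Ifngr2 at 1.04, Ifngr1 at -0.77 and Stat3 at -0.76. In caMKK6 MEFs 4 fell at day 2, beside 24.8% of all genes, among them the kinase genes Jak2 by 0.45 and Tyk2 by 0.38. There limma called 0 higher, beside 14.3% of all genes, with 0 at an unadjusted p under 0.05. In liver 2, 3, 4 and 3 of 12 rose in caMEK1 mCherry, caMKK6 mCherry, caMEK1 GFP and caMKK6 GFP cells, beside 10.7%, 28.9%, 6.46% and 5.21% of all genes, and Tyk2 fell by 0.58 in caMKK6 GFP cells. In the other 3 liver comparisons limma called 0 lower, beside 16.3%, 9.29% and 32.0% of all genes, with 0, 0 and 1 at an unadjusted p under 0.05. Socs3 rose by 2.32 and 2.61 in the GFP cells and Ifngr1 by 2.03 in caMEK1 mCherry cells. In colon Socs3 rose by 1.37 in caMEK1 mCherry cells and by 2.36 and 1.47 in caMEK1 and caMKK6 GFP cells.

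Nucleic acid sensing genes gave mixed counts. In caMEK1 MEFs 3, 4 and 4 of 17 rose and 3, 6 and 3 fell at days 2, 4 and 7, beside 19.5%, 28.5% and 33.4% of all genes higher and 19.8%, 29.3% and 28.7% lower, so that these counts lie near or under the shares of all genes other than the 6 at day 4, which lie slightly above. Among them were the dNTP hydrolase Samhd1, which fell by 0.81, 1.34 and 1.32, and the DNA sensor Aim2, which rose by 0.68, 1.44 and 1.38. In caMKK6 MEFs 0, 0 and 1 rose, beside 14.3%, 17.1% and 16.8% of all genes higher. There 6, 7 and 5 fell, beside 24.8%, 27.7% and 24.0% of all genes lower, Samhd1 by 0.79, 0.96 and 0.93. Sting1, the adaptor for cyclic dinucleotides, rose by 1.19 and 0.97 in caMEK1 and caMKK6 liver GFP cells and by 0.73 and 0.97 in the colon mCherry cells, and Mavs, the adaptor of RIG-I and MDA5, fell by 0.86 in caMEK1 liver mCherry and 1.02 in caMEK1 liver GFP cells.

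A second list of 53 other interferon-stimulated genes, 51 of them in the table, was counted in the same way. In liver 1, 1, 2 and 2 of 37 tested rose in the 4 kinase comparisons, where 10.7%, 28.9%, 6.46% and 5.21% of all genes were called higher. Falls numbered 13, 13, 19 and 9, where 16.3%, 9.29%, 32.0% and 13.8% of all genes were called lower. The leading gene was Apol9b, which fell by 2.62, 2.04, 3.05 and 1.39, and the GTPase Ifi47 fell by 1.51 and 1.99 in mCherry cells. In MEFs 2, 2 and 4 of 22 rose under caMEK1, where 19.5%, 28.5% and 33.4% of all genes were called higher. Under caMKK6 0, 0 and 1 rose, where 14.3%, 17.1% and 16.8% were called higher. Falls numbered 11, 12 and 7 under caMEK1 and 13, 12 and 8 under caMKK6. There 19.8%, 29.3% and 28.7% and then 24.8%, 27.7% and 24.0% of all genes were called lower. They were led by Lgals9 (galectin-9), with falls of 2.14, 3.15 and 2.56 and of 2.06, 2.36 and 1.97. Nlrc5, an activator of MHC class I genes, rose by 1.13, 2.04 and 2.60 in caMEK1 MEFs. In colon 3 and 9 of 35 fell in caMEK1 and caMKK6 mCherry cells, where 12.0% and 9.70% of all genes were called lower, and 1 fell in caMKK6 GFP cells (1.29%). Samd9l fell by 0.91 and 1.63, while Lgals9 rose by 1.91 in caMKK6 mCherry cells.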

How the data were processed

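Bulk RNA-seq of 70 libraries from mouse MEFs, liver hepatocytes and colon epithelium was available as 1 deposited FPKM table, made by the authors; per the submitters' processing notes they used cutadapt 1.12, STAR 2 and mm10, and the counter and annotation are not given in the sources used here. Per the labels' protocols, 100 ng RNA of MEFs and 50 ng of sorted cells went into each library. Members were matched by the table's gene symbols, and the members and gene lists were chosen with earlier results of these data known. A gene of the receptor and JAK-STAT list is not reported here and is left out of that list's counts.

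FPKM values were tested as log2(FPKM + 1) with limma 3.58.1 in R 4.3.3 (1 fit per tissue, moderated variances with trend, Benjamini-Hochberg adjustment over all genes tested). The filter kept genes that reached 1 FPKM in 3 or more MEF libraries (for liver and colon, in 2 or more), which left 11347, 10371 and 11542 genes, with 16, 14 and 14 residual degrees of freedom. Values under 1000 reads were whole multiples of 1 read within 0.02 reads in 100% of cases. Reads could therefore be recovered, with GENCODE M21 gene lengths, for 34 of the 35 members (not Isg15). The recovered reads were tested with voom as an alternative. MEF libraries held 10888915 to 17763531 reads, liver libraries 9267318 to 14534256 and colon libraries 6671204 to 17396973, which gives low genes few reads. The script was tested on simulated data, for 1 comparison per tissue. It recovered 95%, 62% and 54% of log2 changes of 1 in MEFs, liver and colon, and 99%, 92% and 96% of changes of 2. A member not called in liver or colon may therefore still have changed by 1 or less.

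Each comparison's called members are named by role, and up to 4 called genes per list and comparison, by size of difference. Promoters printed were those of the 4 members called most often among those with a match to the response element core before the start. Windows of Oas2, Mx1, Mx2, Ifi27, Dhx58, Usp18, Rtp4, Zbp1 and Parp14 were not used. Alternatives were a pseudocount of 0.1, no filter, median scaling, quantile normalization, a replicate block, another comparator, voom, leaving out libraries that list the other kinase's transgene, and leaving out each library. Same-numbered MEF libraries of a genotype deviated together (correlations of deviations from group means 0.2544 to 0.5259 for caMEK1 and 0.2771 to 0.5088 for caMKK6), as did the mCherry and GFP libraries that the labels give to the same animal (0.4621 to 0.8173 in liver, 0.3956 to 0.7066 in colon), so the numbers were taken to pair samples within a genotype. The main tests did not use this pairing. It entered only the replicate block alternative, by replicate number in MEFs and by animal in liver and colon.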

Additional observations from a re-analysis of the deposited data

Results flagged for a closer look

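For 11 member values the effects of the kinases differed by a test of the difference itself, a limma contrast of caMEK1 minus caMKK6. These were 5 of 17 tested members in MEFs, 3 of 31 in liver and 3 of 32 in colon. Over all genes 37.8%, 31.7% and 20.7% were called, so in the main fit the members were called less often than genes at large. Leaving out single libraries lowered the 3 counts to as few as 3, 0 and 1. Median scaling gave 6 higher and 0 lower in liver, beside 842 higher and 793 lower of 10371 genes. With that scaling the liver members were not called less often than genes at large. In MEFs at day 7 the change differed by -1.42 for Ifit3, -1.09 for Ifit2, -0.85 for Irgm1, -0.51 for Ifih1 and 1.19 for Ifitm3. In liver mCherry cells the difference was -1.07 for Usp18, 1.00 for Ifitm3 and 1.04 for Irgm1. In colon mCherry cells it was 2.96 for Oasl1, 0.71 for Ifih1 and 0.70 for Parp14. Ifitm3 was higher under caMEK1 than under caMKK6 in MEFs and in liver, whereas Irgm1 was lower in MEFs and higher in liver. The doxycycline dose in drinking water differed with the kinase in liver and colon and cannot be told apart from it.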

How the results depend on the processing

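Groups held 2 or 3 libraries, so single libraries could move a count. When each library was left out in turn, the number of members called covered 4 to 10, 8 to 11 and 4 to 7 in caMEK1 MEFs at days 2, 4 and 7, 9 to 12, 8 to 11 and 3 to 9 in caMKK6 MEFs, 3 to 6 for their day 7 difference and 0 to 0 between untreated MEFs. In liver it covered 5 to 14 and 3 to 15 for caMEK1 and caMKK6 mCherry cells, 11 to 18 and 0 to 19 for GFP cells, 0 to 1 and 1 to 10 for mCherry against GFP cells, 0 to 4 between mCherry cells, 0 to 2 between GFP changes and 0 to 0 for Control animals. In colon the ranges in the same order were 1 to 2, 1 to 5, 0 to 3, 0 to 0, 0 to 4, 1 to 12, 1 to 4, 0 to 0 and 0 to 2.

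With no filter the count was 14 in caMEK1 MEFs at day 2 and 6 in caMKK6 liver GFP cells. Without the libraries listing the other transgene it was 5, 5 and 2 in caMKK6 MEFs at days 2, 4 and 7 and 1 for the day 7 difference. Median scaling gave 6 between liver mCherry cells and 1 for caMEK1 liver mCherry against GFP cells; quantile normalization gave 6, 1 and, for caMEK1 colon mCherry against GFP cells, 2; a pseudocount of 0.1 gave 1 for the caMEK1 liver pair. With the replicate block (same animal), mCherry against GFP cells gave 2 and 3 in caMEK1 and caMKK6 liver and 11 and 14 in colon. These counts are given without the share of all genes. The block moved no other count by over 1.5 times. The other comparator gave 9 for caMKK6 colon mCherry cells, a count given without the share of all genes. Ifitm3 in caMEK1 liver mCherry cells reversed to 0.0558 under quantile normalization. The causes were not tested.

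Of 142 called gene values, 6 lost the call with a pseudocount of 0.1, 22 with no filter, 9 with median scaling and 15 with quantile normalization. The replicate block lost 2, and voom 3 of 139. A larger share was lost without the MEF libraries that list the other transgene, and over the fits that left out each library. Some of those fits leave 1 library in a group. Low members near 1 FPKM are limited by depth and by the scale.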
